A study of Mus musculus with 2 samples.

Results

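This account describes the genes whose level differed between 2 single-cell libraries in the same direction in muscle, ectoderm and endothelium, the 3 non-mesenchymal cell classes of the mouse hindlimb that were read here. Single-cell RNA sequencing counts the messenger RNA molecules of each cell as UMIs, short random tags that let each captured molecule be counted a single time. A barcode, which stands for a droplet with a cell, was put in a class by its own UMIs: muscle by a sum of at least 3 for Pax3, Pax7, Lbx1, Myod1 and Myog, ectoderm by a sum of at least 4 for Epcam, Cdh1, Krt14 and Krt5 with Epcam present, and endothelium by a sum of at least 5 for Cdh5, Pecam1 and Kdr with Cdh5 present. Barcodes that fitted 2 classes, or in which globins made up 5% or more of the UMIs, were left out. The classes held 1557 of the 24473 barcodes that passed the quality filters, 715 of them muscle, 567 ectoderm and 275 endothelium. Within each class the UMIs of all cells were added up and scaled to CPM, the count of a gene per 1000000 counts of all genes, and a gene counted as called when the dual-enSERT-2 level was at least 2-fold above, or at least 2-fold below, the dual-enSERT-1 level in all 3 classes. Of 6038 genes measured in all 3 classes, 16 were called, 10 higher and 6 lower. These genes were chosen by the same folds that are given for them below, so the folds are a description and carry no test.

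Each library was made from the hindlimb of a single FVB mouse embryo at E11.5, a stage when the limb is a bud. The dual-enSERT-1 embryo carried, at the H11 insertion site, a ZRS-mCherry reporter and a ZRS404G>A-eGFP reporter. The ZRS is the limb enhancer of Shh, here in its reference form and in a form with a base substitution. The dual-enSERT-2 embryo carried the same pair with an element named SI between the reporters and an element named B at either end, and the labels do not spell out B and SI. With 1 library per group there is no replicate error, and embryo, construct and preparation cannot be told apart as the source of a difference.

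Nearly all RNA of a cell is ribosomal RNA, which RNA polymerase I copies from repeated genes and which carries no regular poly(A) tail, so a method that primes on poly(A) is aimed at the much rarer messenger RNA. Limb mesenchyme, the loose connective tissue that makes up most of the limb bud, builds the skeleton and tendons, whereas muscle precursors migrate in from the somites, endothelium lines the vessels and ectoderm covers the bud. Genes of limb mesenchyme such as Robo2, Sox9 and Shox2 are therefore not hallmarks of any of the 3 classes. The timing of development is in part set by LIN28 proteins, which block the maturation of the microRNA let-7, and by let-7, which represses messages that hold matches to its seed.

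The dual-enSERT-1 classes held 638, 416 and 210 cells with 17442568, 8732652 and 7042030 UMIs in muscle, ectoderm and endothelium. The dual-enSERT-2 classes held 77, 151 and 65 cells with 2485577, 4247586 and 2290152 UMIs. A level of 20 CPM, the minimum for a measured gene, thus stands for 349, 175 and 141 UMIs of dual-enSERT-1, but for 49.7, 85.0 and 45.8 UMIs of dual-enSERT-2. The class names held against markers that the rule did not use: 13 of 14 ectoderm and 13 of 13 endothelial markers were at least 2-fold above the other cell groups in both libraries, and of 12 muscle markers dual-enSERT-1 met this for 11 and dual-enSERT-2 for 8. The make-up of the classes was not the same, however: the 14 ectoderm markers summed to 1655 against 3073 CPM in ectoderm, led by Fgf8, the growth factor of the apical ridge, with 548 against 1566 CPM. The libraries shared 49 barcodes, none of them in the 3 classes.

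Other RNA moved with the library in these classes. Barcodes that also fitted a rule for mesenchyme made up 41.8%, 29.1% and 27.1% of muscle, ectoderm and endothelium in dual-enSERT-1, against 29.9%, 21.2% and 9.23% of the dual-enSERT-2 classes. The doublet caller Scrublet marked 25.7%, 17.3% and 18.6% of the class cells of dual-enSERT-1 and 3.90%, 8.61% and 4.62% of those of dual-enSERT-2. The summed level of 18 mesenchyme markers was 1237 against 959 CPM in muscle, 1631 against 1220.2 CPM in ectoderm and 529 against 409 CPM in endothelium. Of these markers, dual-enSERT-1 had UMIs of all 18 in every class and dual-enSERT-2 of 15, 16 and 15. Dcn and Lum were at 0 in the 3 classes of dual-enSERT-2, but Dcn had only 21, 26 and 3 UMIs and Lum 65, 30 and 13 in the deeper dual-enSERT-1, so these zeros say little. Globins took 0.0274%, 0.0268% and 0.0269% of the dual-enSERT-1 UMIs, against 0.278%, 0.276% and 0.234% of those of dual-enSERT-2, a library in which erythroid cells were 20.9% of the kept barcodes against 1.35%. The part of these barcodes and of free RNA in the calls was not tested. Each called gene with values below is also given without at least 1 kind of doubted barcode where its call depends on them.

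The 10 genes called higher made up 0.166% of the measured genes and the 6 called lower 0.0994%, and since the same folds chose them nothing is read from these shares. In muscle alone 34 genes (0.563%) were at least 2-fold higher and 102 (1.69%) at least 2-fold lower. In ectoderm alone the counts were 18 (0.298%) and 61 (1.01%), and in endothelium alone 16 (0.265%) and 28 (0.464%). The genes shared by all 3 classes were 29.4%, 55.6% and 62.5% of the higher calls of muscle, ectoderm and endothelium, but 5.88%, 9.84% and 21.4% of the lower calls. With a fold of 1.5 in place of 2, 19 genes (0.315%) were higher and 34 (0.563%) lower in all 3 classes. Without any minimum fold, 1911 genes (31.6%) were higher in all 3 classes and 1090 (18.1%) lower, and the median log2 fold over the measured genes was 0.05 in muscle, 0.04 in ectoderm and 0.05 in endothelium. All folds are log2 ratios of CPM with 1 CPM added to both levels, whereas ratios given as "-fold" have nothing added. Intervals are exact 95% intervals for counting error only.

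**Figure D1:**
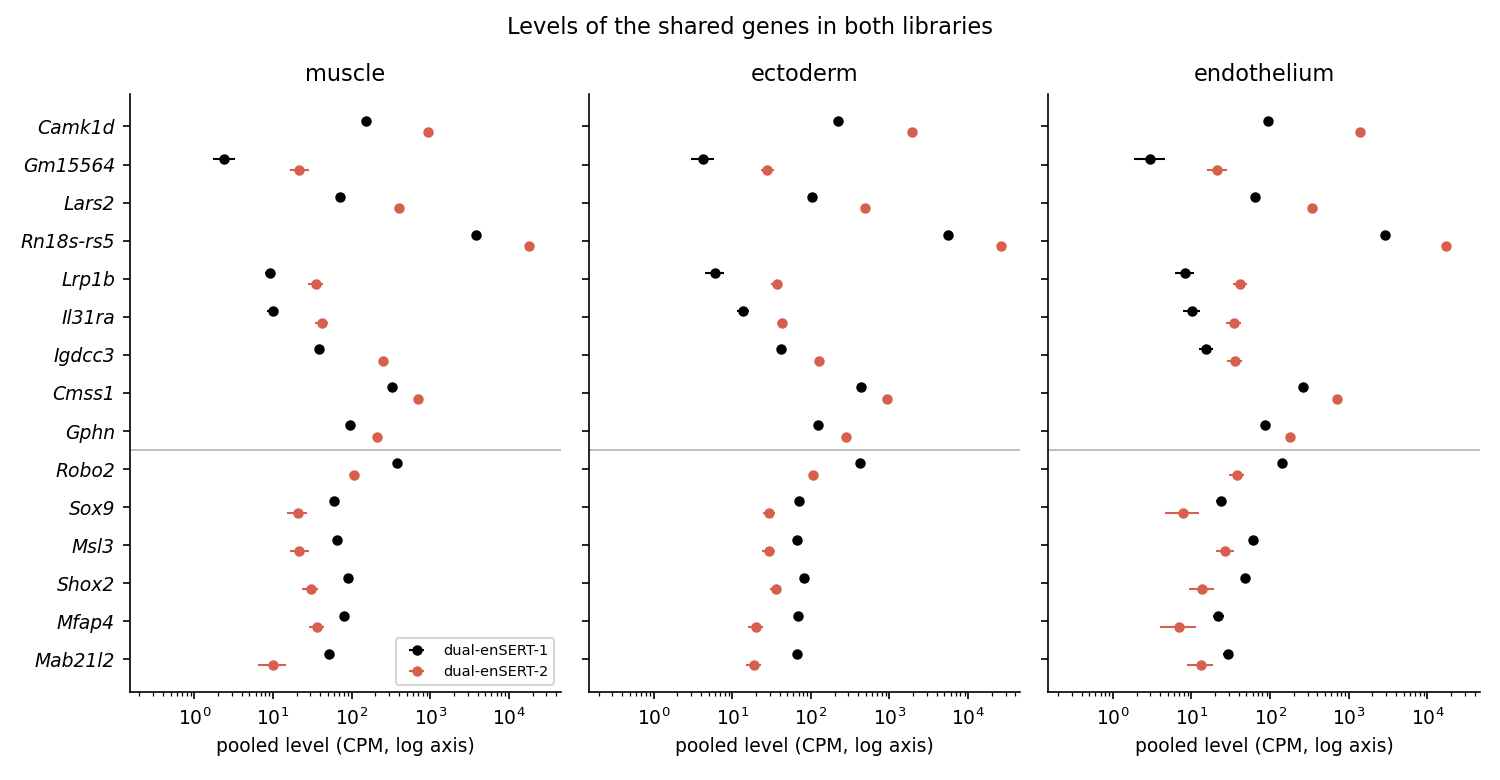
Pooled level in CPM of 15 of the 16 called genes on a log axis, 1 panel per class, with dual-enSERT-1 in black and dual-enSERT-2 in red. Bars are exact 95% counting intervals. The 9 genes above the grey line are higher in dual-enSERT-2 in every panel, from 2.41 CPM for Gm15564 in muscle of dual-enSERT-1 to 26105 CPM for Rn18s-rs5 in ectoderm of dual-enSERT-2.

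The largest of the higher levels belonged to Rn18s-rs5, a feature of the annotation for a copy of the 18S ribosomal RNA of the small ribosomal subunit (ENSMUSG00000119584, GRCm39 chr17:40157244-40159092, plus strand). Its level was 3770.0 CPM in muscle of dual-enSERT-1 against 17872 CPM for dual-enSERT-2. In ectoderm it stood at 5623 against 26105 CPM and in endothelium at 2929.6 against 17013 CPM. The ratio was 4.74-fold in muscle (interval 4.68 to 4.80), 4.64-fold in ectoderm (4.59 to 4.69) and 5.81-fold in endothelium (5.71 to 5.91). The feature alone took 0.377%, 0.562% and 0.293% of the UMIs of the 3 classes in dual-enSERT-1, against 1.79%, 2.61% and 1.70% for dual-enSERT-2.

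The difference lay in most cells of each class. Every muscle cell of dual-enSERT-2 (100%) was above the dual-enSERT-1 median for Rn18s-rs5, and so were 90.1% of the ectoderm and 89.2% of the endothelial cells. The median over single cells was 4046 against 19149 CPM in muscle, 7345 against 33826 CPM in ectoderm and 3631 against 24315 CPM in endothelium. The spread was wide in both libraries, with a 5th to 95th percentile range of 620 to 21292 CPM in endothelium of dual-enSERT-1 and 2273 to 98949 CPM in endothelium of dual-enSERT-2.

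Camk1d, which encodes a calcium- and calmodulin-dependent protein kinase (chr2:5298268-5719375, minus strand), had the next highest level in dual-enSERT-2 and, in ectoderm and endothelium, the largest ratios of the set. It stood at 151 against 942 CPM in muscle, 222 against 1919 CPM in ectoderm and 94.3 against 1388 CPM in endothelium. These are ratios of 6.22 (interval 5.88 to 6.58), 8.63 (8.22 to 9.08) and 14.7 (13.5 to 16.03). Of the dual-enSERT-2 cells, 100% of muscle, 96.7% of ectoderm and 96.9% of endothelium were above the dual-enSERT-1 median of their class, although the ranges of single cells overlapped.

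**Figure D2:**
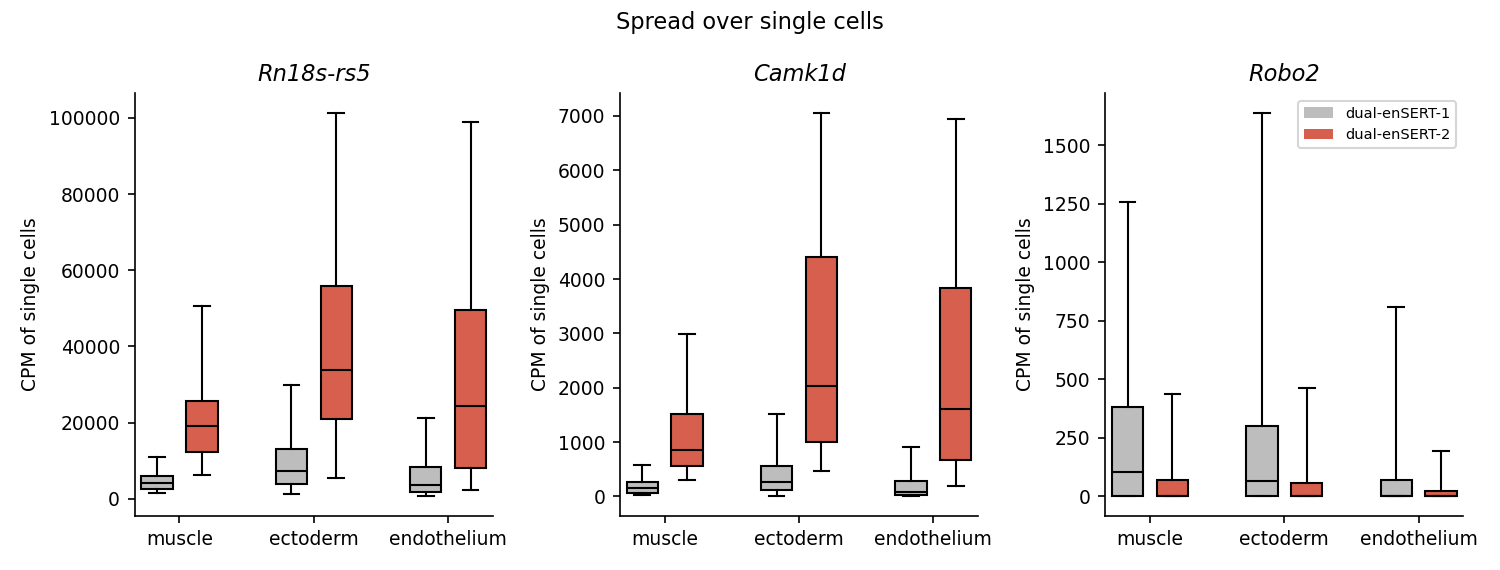
CPM of single cells for Rn18s-rs5, Camk1d and Robo2 in the 3 classes, dual-enSERT-1 in grey and dual-enSERT-2 in red. Boxes span the quartiles with the median as a line and whiskers run from the 5th to the 95th percentile. For Camk1d the dual-enSERT-2 median is 860 CPM in muscle, above the dual-enSERT-1 95th percentile of 573 CPM.

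Lars2, which charges the leucine transfer RNA of mitochondria (chr9:123195952-123291731, plus strand), stood at 71.5 against 396 CPM in muscle, 102 against 487 CPM in ectoderm and 64.0 against 339 CPM in endothelium. Its ratios of 5.54, 4.76 and 5.30 were close to those of Rn18s-rs5 in the same classes. Gm15564, a long noncoding RNA annotated on the strand opposite to the importin gene Kpna1 (chr16:35776121-35803658, minus strand), was low in both libraries, at 2.41 against 21.7 CPM, 4.24 against 28.0 CPM and 2.98 against 21.4 CPM. It rests on 42, 37 and 21 UMIs in dual-enSERT-1, and its ratio in endothelium was 7.17 (interval 4.22 to 12.6). Because the use of strand in the counting is not given in the sources used here, reads of Gm15564 and Kpna1 cannot be told apart with certainty. Kpna1 itself had log2 folds of 0.43, 0.29 and 0.21.

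Il31ra, a subunit of the receptor for interleukin 31 (chr13:112656432-112730894, minus strand), stood at 9.92 against 41.4 CPM in muscle, 13.7 against 42.8 CPM in ectoderm and 10.1 against 34.5 CPM in endothelium. Gphn, which encodes gephyrin, the scaffold of inhibitory synapses and an enzyme of molybdenum cofactor synthesis (chr12:78272504-78732541, plus strand), stood at 96.3 against 210.0 CPM, 123 against 278 CPM and 85.5 against 179 CPM. Neither gene is a known marker of the 3 classes, and both were at like levels in all of them.

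These 5 genes, Camk1d, Il31ra, Lars2, Gm15564 and Gphn, share sequence with each other. A search of the gene bodies of the called genes against each other, for stretches of at least 100 bases at 95% identity or more that at most 10 measured genes hold, found 3 pairs, all in the same orientation to the genes. An intron of Camk1d (chr2:5383851-5384031, minus strand) and an intron of Il31ra (chr13:112714717-112714898, minus strand) were 96.7% identical over an alignment of 182 positions. An exon of Gm15564 (chr16:35802028-35802191, minus strand) and the 3′ untranslated region of Lars2 (chr9:123291088-123291251, plus strand) were 98.2% identical over 164. The same untranslated region (chr9:123290857-123291100) and an intron of Gphn (chr12:78397704-78397947, plus strand) were 97.5% identical over 244. The Camk1d and Il31ra stretches are shown in full because these genes have no other known relation. They are on GRCm39, 5′ to 3′ on the strand of each gene, with the bases that differ between them in capitals.
Camk1d intron: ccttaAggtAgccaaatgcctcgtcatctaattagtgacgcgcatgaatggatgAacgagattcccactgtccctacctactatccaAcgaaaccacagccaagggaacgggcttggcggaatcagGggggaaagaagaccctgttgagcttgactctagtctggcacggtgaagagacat
Il31ra intron: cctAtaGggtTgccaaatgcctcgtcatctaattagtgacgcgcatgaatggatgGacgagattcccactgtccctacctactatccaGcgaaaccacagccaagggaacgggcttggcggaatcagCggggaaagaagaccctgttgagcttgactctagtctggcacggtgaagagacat

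The Gm15564 and Lars2 stretches hold, near their 3′ end, the letters TACGAGAGG, which in RNA are part of the sarcin-ricin loop, a conserved piece of the large-subunit ribosomal RNA that is the target of the toxin ricin. The last 27 bases of each stretch are shown with these letters in capitals.
Gm15564 exon (chr16:35802028-35802054, minus strand): atcctgctcagTACGAGAGGaacagca
Lars2 untranslated region (chr9:123291225-123291251, plus strand): atcctgctcagTACGAGAGGaaccgca
On either strand, TACGAGAGG occurred in 375 of 2395682 windows of 164 bases cut from the bodies of the measured genes, or 0.0157%. The letters were looked for in stretches already picked, and the Gm15564 and Lars2 stretches are near copies, so this share supports nothing about their origin. The Camk1d, Il31ra and Gphn stretches do not hold these letters. No ribosomal RNA reference sequence was used here, so the match of the longer stretches to ribosomal RNA was not measured.

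Among 6035 measured genes with coordinates, 10 (0.166%) held a match of at least 60 bases at 90% identity to any of these stretches. The 5 genes that gave the stretches are 5 of those 10 by construction. Of the others, the long noncoding gene 1600010M07Rik held a 78-base match in sense and had a median log2 fold of 0.11 over the 3 classes. Kpna1, Mphosph8, Dcaf10 and Fgfr2 held matches only on the strand opposite to the gene, with median log2 folds of 0.29, 0.18, 0.15 and -0.15. None of the 6 genes called lower held a match. The stretches were chosen among called genes, so these counts describe the genes and support nothing further.

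Lrp1b, a large receptor of the low-density lipoprotein receptor family (chr2:40485258-42543636, minus strand), stood at 9.17 against 35.0 CPM in muscle, 5.95 against 36.7 CPM in ectoderm and 8.24 against 41.9 CPM in endothelium. The ratios of 3.82 (interval 2.90 to 4.98), 6.17 (4.48 to 8.61) and 5.09 (3.64 to 7.18) rest on 160, 52 and 58 UMIs in dual-enSERT-1. Cmss1, the homolog of a yeast gene of the small ribosomal subunit (chr16:57122363-57427253, minus strand), was among the more abundant genes of the set, at 322 against 701 CPM, 439 against 921 CPM and 261 against 718 CPM. Without Scrublet doublets its log2 folds were 0.86, 0.98 and 1.46, which ends the call in muscle and ectoderm.

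Igdcc3, a receptor of the immunoglobulin superfamily that is expressed in early embryos (chr9:65048379-65094313, plus strand), differed most in muscle. It stood at 38.0 against 253 CPM in muscle, 41.7 against 128 CPM in ectoderm and 15.3 against 35.8 CPM in endothelium. The ratios were 6.66 (interval 5.96 to 7.44), 3.08 (2.69 to 3.52) and 2.33 (1.73 to 3.14), so the muscle and endothelial intervals do not overlap. The endothelial value rests on few cells: 1 cell held 30.5% of the 82 Igdcc3 UMIs of dual-enSERT-2 endothelium. Without the cell with most UMIs in each class and library, the log2 folds were 2.71, 1.59 and 0.80, and without barcodes fitting the mesenchyme rule they were 3.03, 1.60 and 0.36. The call in endothelium therefore ended under both, whereas muscle and ectoderm kept theirs.

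The 3′ untranslated region of Igdcc3 holds 4 matches to the seed of let-7 within 1698 bases. They are shown, with the 7 bases opposite to the let-7 seed in capitals, because this count is rare among the measured genes. Of 5924 measured genes with an annotated 3′ untranslated region, 14.0% held at least 1 such match on the message strand and 0.371% at least 3. The mature let-7a sequence is from RefSeq (GRCm38.p6) and its seed, bases 2 to 8, is in capitals.
mmu-let-7a-5p: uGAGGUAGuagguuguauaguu
Igdcc3 match 1 (chr9:65092989-65093011, plus strand): tgtgactctcagcacCTACCTCa
Igdcc3 match 2 (chr9:65093069-65093091, plus strand): agcccgaaagcactcCTACCTCa
Igdcc3 match 3 (chr9:65093234-65093256, plus strand): tgtgaaagaaactgtCTACCTCa
Igdcc3 match 4 (chr9:65093315-65093337, plus strand): catccctggcctagcCTACCTCt

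Other genes with several matches did not all stand with Igdcc3. Only some of the measured genes with several matches are named here, so no trend with the number of matches is read. Prtg and Fignl2 were named as genes nearest the limit and also after their values were seen. Prtg, the protogenin receptor of the early embryo with 2 matches, had log2 folds of 1.52 in muscle, 1.06 in ectoderm and 0.94 in endothelium, and Fignl2, with 3 matches, had 1.69, 0.78 and 0.90. Lin28b, which blocks let-7 maturation and itself holds 4 matches, had 0.53, 0.70 and 0.43. Hmga2, a chromatin protein and textbook let-7 target with 4 matches, had 0.47 in muscle, -0.49 in ectoderm and 0.15 in endothelium. Of the other called genes with an annotated 3′ untranslated region, Camk1d and Msl3 held 1 match each and the rest none. Over the 10 measured genes of a developmental timing list, 5 were higher in all 3 classes, 3 were lower and the median log2 fold was 0.12, beside 31.6%, 18.1% and 0.05 over all measured genes. In that list Nfia, a transcription factor that comes on late in many lineages, stood at 191 against 29.0 CPM in muscle, 345 against 26.1 CPM in ectoderm and 256 against 172 CPM in endothelium. Lin28a, named after its values were seen and not measured at 20 CPM in endothelium, stood at 3.44 against 40.6 CPM, 10.2 against 17.2 CPM and 0.568 against 4.80 CPM, the last on 4 and 11 UMIs.

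The 6 genes called lower were headed by Robo2, a receptor for SLIT guidance proteins (chr16:73688727-75244270, minus strand). It stood at 382 against 106 CPM in muscle, 423 against 108 CPM in ectoderm and 140.0 against 38.0 CPM in endothelium. The dual-enSERT-1 level was 3.61-fold higher in muscle (interval 3.19 to 4.10), 3.93-fold in ectoderm (3.57 to 4.34) and 3.69-fold in endothelium (2.96 to 4.64). Mesenchyme of the same libraries stood above every class, at 1120.0 against 459 CPM. The class levels of Robo2 were 34.1%, 37.8% and 12.5% of the mesenchymal level in dual-enSERT-1, against 23.1%, 23.4% and 8.28% for dual-enSERT-2.

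Sox9, the transcription factor of cartilage (chr11:112673009-112678586, plus strand), stood at 59.6 against 20.5 CPM, 70.5 against 29.7 CPM and 23.9 against 7.86 CPM. Shox2, a transcription factor of the proximal limb skeleton (chr3:66879058-66889284, minus strand), stood at 91.2 against 30.2 CPM, 80.7 against 36.0 CPM and 47.3 against 13.5 CPM. Mfap4, a glycoprotein of elastic microfibrils (chr11:61376212-61379727, plus strand), stood at 79.9 against 36.2 CPM, 69.4 against 20.01 CPM and 21.9 against 6.99 CPM. Mab21l2, a developmental gene with roles in eye and body wall (chr3:86452888-86455590, minus strand), stood at 51.5 against 10.1 CPM, 67.1 against 18.8 CPM and 29.3 against 13.1 CPM. Like Robo2, these 4 genes were highest in mesenchyme in both libraries, where Sox9 stood at 233 against 88.8 CPM. In dual-enSERT-1 their class levels were 22.8% to 50.9% of the mesenchymal level in muscle and ectoderm and 10.2% to 14.9% in endothelium.

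The dual-enSERT-2 side of these ratios rests on few cells. In endothelium it holds 18 UMIs of Sox9, 31 of Shox2, 16 of Mfap4 and 30 of Mab21l2, of which the cell with most held 27.8%, 25.8%, 31.3% and 23.3%. After each cell was thinned to 5000 UMIs, 24.7%, 21.8% and 4.84% of the dual-enSERT-2 cells of muscle, ectoderm and endothelium had a Robo2 UMI, against 47.8%, 40.9% and 23.4% of the dual-enSERT-1 cells. Mfap4 was seen in 8.29% of endothelial cells of dual-enSERT-1 and in 0 of 62 of dual-enSERT-2, with an exact upper limit of 5.78%. Without thinning, Mfap4 was seen in 9.23% of the endothelial cells of dual-enSERT-2.

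None of these 5 genes remained called once barcodes that also fitted the mesenchyme rule were left out, though not all of them lost the fold. The part of mesenchymal RNA in this was not tested. Without barcodes fitting the mesenchyme rule, the log2 folds of Robo2 were -1.40 in muscle, -2.08 in ectoderm and -0.43 in endothelium. Those of Sox9 were -0.15, 0.38 and -0.38, with the direction reversed in ectoderm. Shox2 had -1.98, -0.9998 and -1.27, with ectoderm just short of the limit, and Mfap4 had -0.76, -1.45 and -1.89. Mab21l2 had -1.51, -1.02 and -1.58, all past the limit, but no longer reached 20 CPM in every class. Leaving out Scrublet doublets instead gave Shox2 -0.69, -0.79 and -1.10 and Mab21l2 -0.43, -1.81 and -0.98.

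Msl3 was the exception among the lower genes. It encodes a chromatin reader of the male-specific lethal complex, which acetylates histone H4, and lies on the X chromosome (chrX:167434264-167457515, minus strand). It stood at 65.2 against 21.7 CPM in muscle, 66.0 against 29.0 CPM in ectoderm and 61.1 against 27.1 CPM in endothelium, so the classes were alike within each library and the libraries did not overlap. Mesenchyme stood at 66.7 against 27.8 CPM, and macrophages at 97.2 against 28.9 CPM on 80 and 21 UMIs. The dual-enSERT-2 level was 0.333 times the dual-enSERT-1 level in muscle (interval 0.249 to 0.438), 0.439 times in ectoderm (0.358 to 0.534) and 0.443 times in endothelium (0.334 to 0.580). Without barcodes fitting the mesenchyme rule its log2 folds were -1.58, -1.28 and -1.32, and without Scrublet doublets -1.59, -1.26 and -1.21. Thinned to 5000 UMIs, 28.2% of the muscle and 27.5% of the ectoderm cells of dual-enSERT-1 had an Msl3 UMI, against 7.79% and 9.52% for dual-enSERT-2. In endothelium 41 of 205 cells had one, against 6 of 62.

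**Figure D3:**
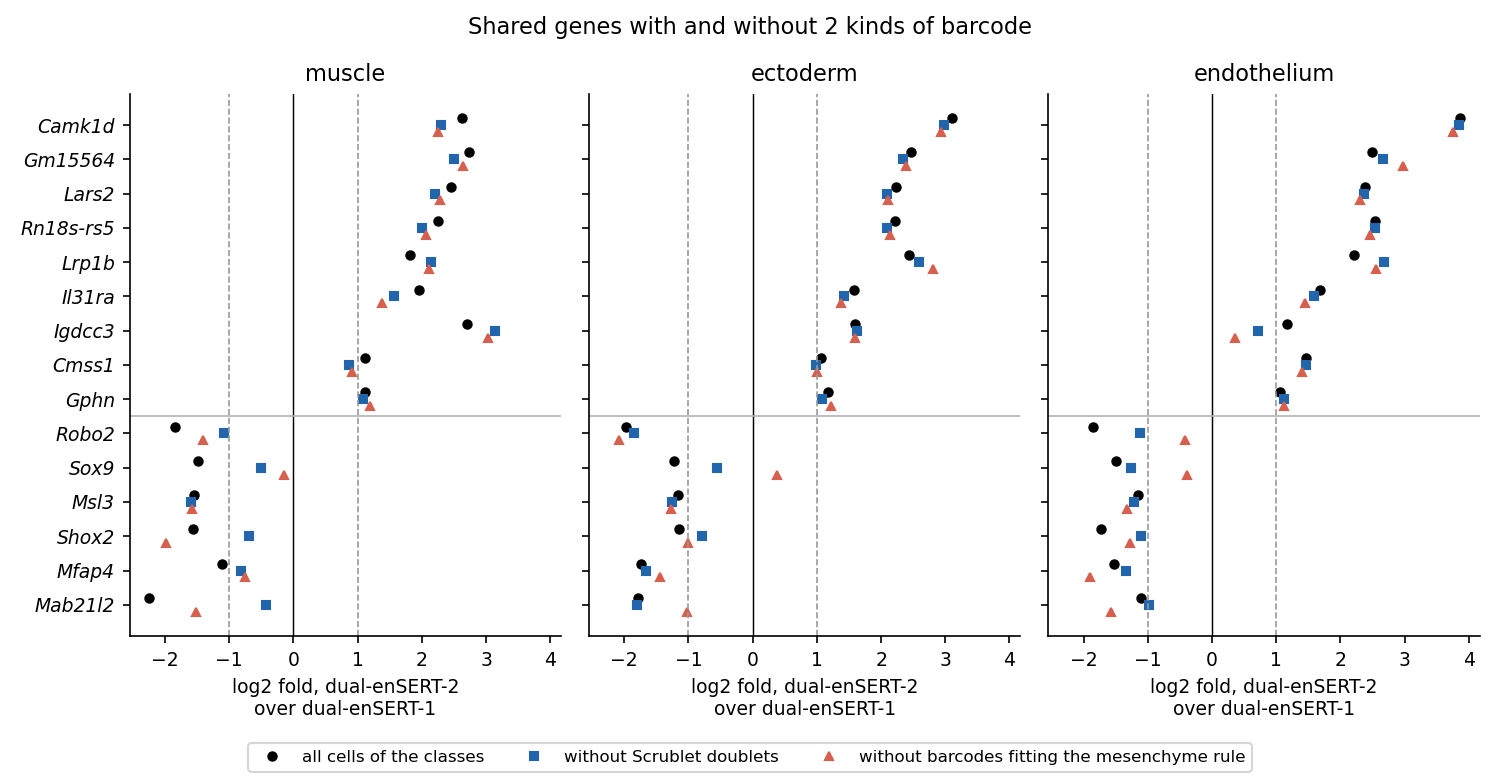
Log2 folds of 15 of the 16 called genes in each class from all class cells (black circles), without Scrublet doublets (blue squares) and without barcodes that also fit the mesenchyme rule (red triangles), with dashed lines at 2-fold. Rn18s-rs5, Camk1d, Lars2, Gm15564, Lrp1b, Il31ra and Gphn stay past the upper line under all 3, and of the lower genes only Msl3 stays past the lower line in every class.

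Without barcodes fitting the mesenchyme rule, 7 of the 10 higher genes and 1 of the 6 lower genes remained called, and no other gene was. The 7 were Camk1d, Gm15564, Lars2, Rn18s-rs5, Lrp1b, Il31ra and Gphn, and the 1 was Msl3. Without Scrublet doublets 8 higher genes remained, the same 7 among them, and 2 lower genes, Robo2 and Msl3. Over 21 other settings of the processing, Camk1d, Gm15564, Lars2, Rn18s-rs5 and Lrp1b were at least 2-fold higher in all 3 classes under each. Their calls were not all as stable, since a call also needs the minimum level. Gm15564 lost its call at a minimum of 50 CPM and at most 5% mitochondrial UMIs. It also lost it with marker sums 2 higher and without the cell with most UMIs, and Lrp1b lost its call at 50 CPM. The folds of the other genes were less stable. With cells thinned to 5000 UMIs before classes were assigned, Camk1d, Gm15564, Lars2, Rn18s-rs5 and Lrp1b were the only higher genes that remained called, and Robo2 and Shox2 the only lower ones. Msl3 then had log2 folds of -0.94, -1.02 and -0.91 and Gphn 0.98, 0.84 and 1.41.

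The shared differences were also present in cells that no class used, though in the same libraries. In mesenchyme, 14399 and 4165 cells, all 10 higher genes were higher and 6 were at least 2-fold higher, beside 0.232% of the measured genes. All 6 lower genes were lower in mesenchyme and 3 at least 2-fold lower, beside 0.812%. The genes were chosen by their folds in the 3 classes and not in mesenchyme, so smaller folds there can follow from that choice alone. The folds of the higher genes were smaller in mesenchyme, with a median log2 fold of 1.78 against 1.95 over the 3 classes. Camk1d, for example, had a ratio of 3.49 in mesenchyme, below its interval in every class, while Igdcc3 had 4.69, between muscle and ectoderm. In erythroid cells, 241 and 1397, scaled to UMIs that are not globin, all 10 higher genes were higher and all 6 lower genes lower, although counting intervals there, such as those of Il31ra and Msl3, included no difference. Of these, 6 were at least 2-fold higher, beside 3.03% of the measured genes, and 5 at least 2-fold lower, beside 2.34%. In macrophages, 40 and 27 cells, 9 of the 10 higher genes were at least 2-fold higher, beside 3.18% of the measured genes. Of the 6 lower genes, 3 were at least 2-fold lower, beside 1.99%. Sox9 and Mfap4 were not lower in macrophages, on 0 against 6 UMIs and on 2 against 2. Erythroid cells and macrophages differ from the 3 classes in that 450 of the 1397 erythroid cells and 5 of the 27 macrophages of dual-enSERT-2 held at least 3 Xist UMIs, against none in dual-enSERT-1.

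**Figure D4:**
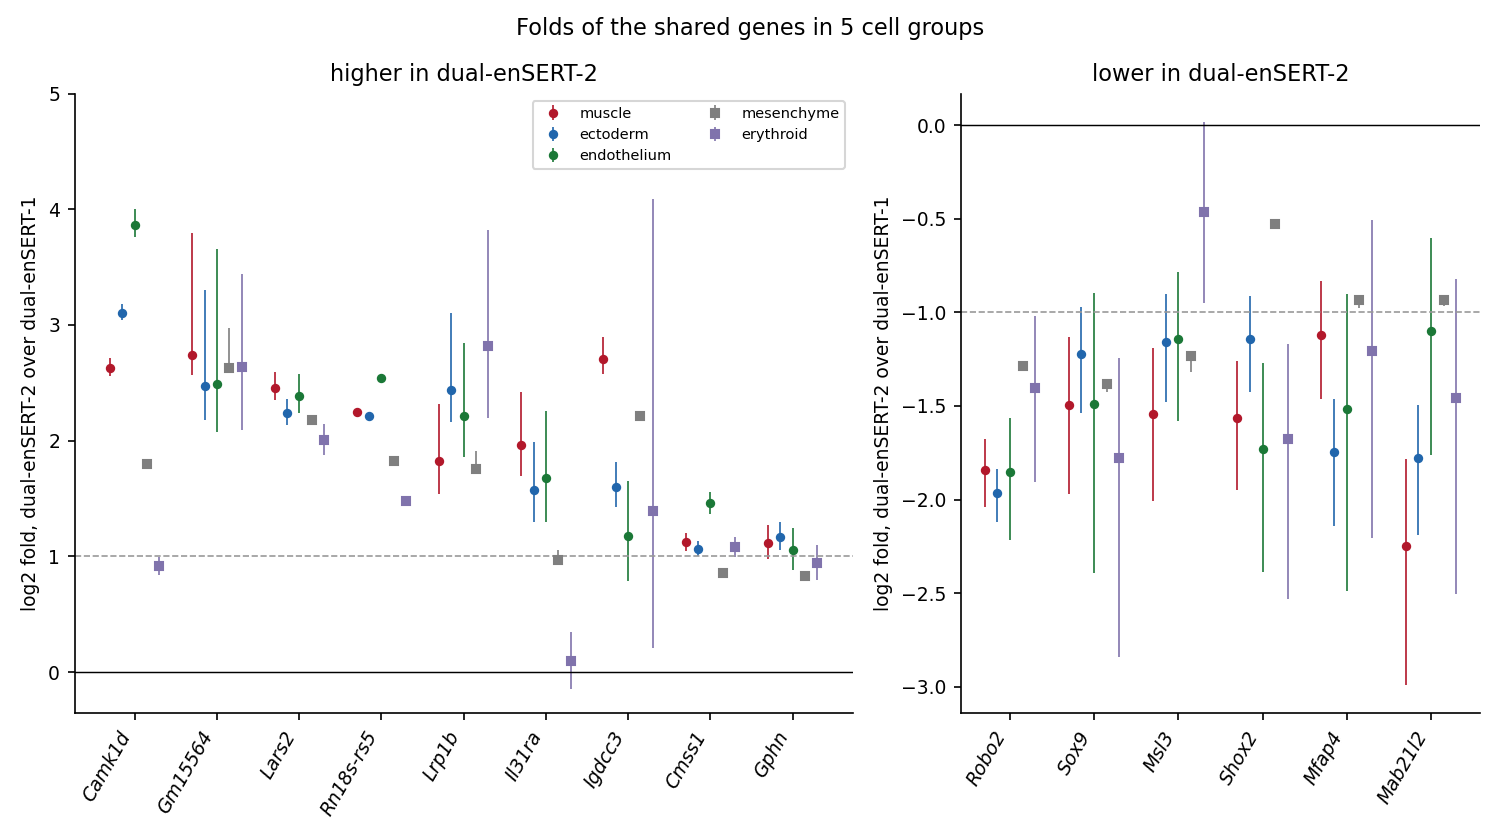
Log2 fold of 15 of the 16 called genes, dual-enSERT-2 over dual-enSERT-1, in the 3 classes (circles) and in mesenchyme and erythroid cells (squares), with exact 95% counting intervals as bars and dashed lines at 2-fold. Msl3 has nearly the same fold in the 3 classes and mesenchyme, from -1.54 to -1.14, whereas the Camk1d fold runs from 0.92 in erythroid cells to 3.87 in endothelium.

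The share of cells with a UMI moved with the level for nearly all of the genes. At 5000 UMIs per cell, 15 of the 16 genes had a share that differed in the direction of the fold in all 3 classes, and the 16th, Rn18s-rs5, was already seen in 100% of muscle cells of both libraries. Camk1d was seen in 54.3%, 68.7% and 46.8% of the cells of dual-enSERT-1 and in 96.1%, 98.6% and 85.5% of dual-enSERT-2. Igdcc3 was seen in 15.9%, 14.0% and 5.85% against 71.4%, 43.5% and 12.9%. Its endothelial intervals overlapped, at 3.06% to 10.0% against 5.74% to 23.9%. Without thinning, its endothelial shares were 29.5% against 29.2%, so no higher share in dual-enSERT-2 is read there. The cells left out as too shallow numbered 10, 30 and 5 for dual-enSERT-1, against 0, 4 and 3 for dual-enSERT-2, and without thinning the Camk1d shares were 95.6%, 95.9% and 90.5% against 100%, 100% and 100%.

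Gene lists were chosen for functions that could differ between preparations, and of all members of the 22 lists only Sox9 was called. Counts are given without a minimum fold, beside 31.6% higher and 18.1% lower over all measured genes, and a list's median is taken over its measured members, each by the middle of its 3 class folds. Of 11 measured mesenchyme genes none was higher in all 3 classes and 6 were lower, with a median log2 fold of -0.93, against -0.09 for the same genes in mesenchyme itself. Prrx1, Prrx2, Twist1 and Pdgfra are in this list and also chose the mesenchyme cells, so its mesenchyme value is partly set by that choice. Col3a1, a fibrillar collagen, had -1.73, -1.06 and -0.98, and Col1a2 had -1.63, -1.33 and -0.44. Of 7 limb position genes 1 was higher and 4 were lower, with a median of -1.03 against -0.07 in mesenchyme. Hand2, the posterior limb factor, had -1.83, -1.21 and -0.67, and Tbx4, the hindlimb factor, -1.68, -1.13 and -0.76. Without barcodes fitting the mesenchyme rule, Hand2 had -0.60, -1.54 and -0.30 and Tbx4 -0.02, -0.40 and -0.73.

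Ribosomal protein genes stood lower as a group while the 18S feature stood higher. Of 81 measured, 67 were lower in all 3 classes and 3 higher, with a median log2 fold of -0.19. Rpl39 had -0.53, -0.77 and -0.65 and Rps27 -0.49, -0.74 and -0.63. Without Rn18s-rs5 in the denominator of CPM, the median over all measured genes was 0.07 in each class. Messages of the mitochondrial genome went the other way, with 10 of 11 higher and a median of 0.30. Of 70 nuclear genes of the respiratory chain, 12 were higher and 32 lower, with a median of -0.05.

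Stress lists were higher. Of 8 heat shock genes 7 were higher in all 3 classes and none lower (median 0.28), among them the chaperone Hsp90aa1 with 0.51, 0.81 and 0.68 and Dnajb1 with 0.71, 0.55 and 0.70. Of 10 genes of the unfolded protein and integrated stress responses 6 were higher and none lower (median 0.27), with the endoplasmic reticulum chaperone Hspa5 at 0.65, 0.95 and 0.44. Of 5 immediate early genes, which are induced by tissue dissociation, none was higher and 3 were lower (median -0.52), and Jun had -0.66, -0.23 and -0.60. Of 15 cholesterol synthesis genes 9 were higher and none lower (median 0.24).

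Proliferation lists leaned higher by less. Of 25 S phase genes 12 were higher and 1 lower (median 0.23), and of 24 G2/M genes 13 were higher and none lower (median 0.12). Of 14 replication-dependent histone genes 1 was higher and 5 lower (median -0.08), and of 14 glycolysis and hypoxia genes 1 was higher and 6 lower (median -0.08). Imprinted genes (14 measured, 1 higher and 2 lower, median -0.04) and noncoding host genes (12 measured, 1 higher and 5 lower, median -0.06) were near the median of all genes. Of 5 p53 target genes 2 were higher and 1 lower (median 0.12), and of 3 interferon and antigen presentation genes 2 were higher and none lower (median 0.55).

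**Figure D5:**
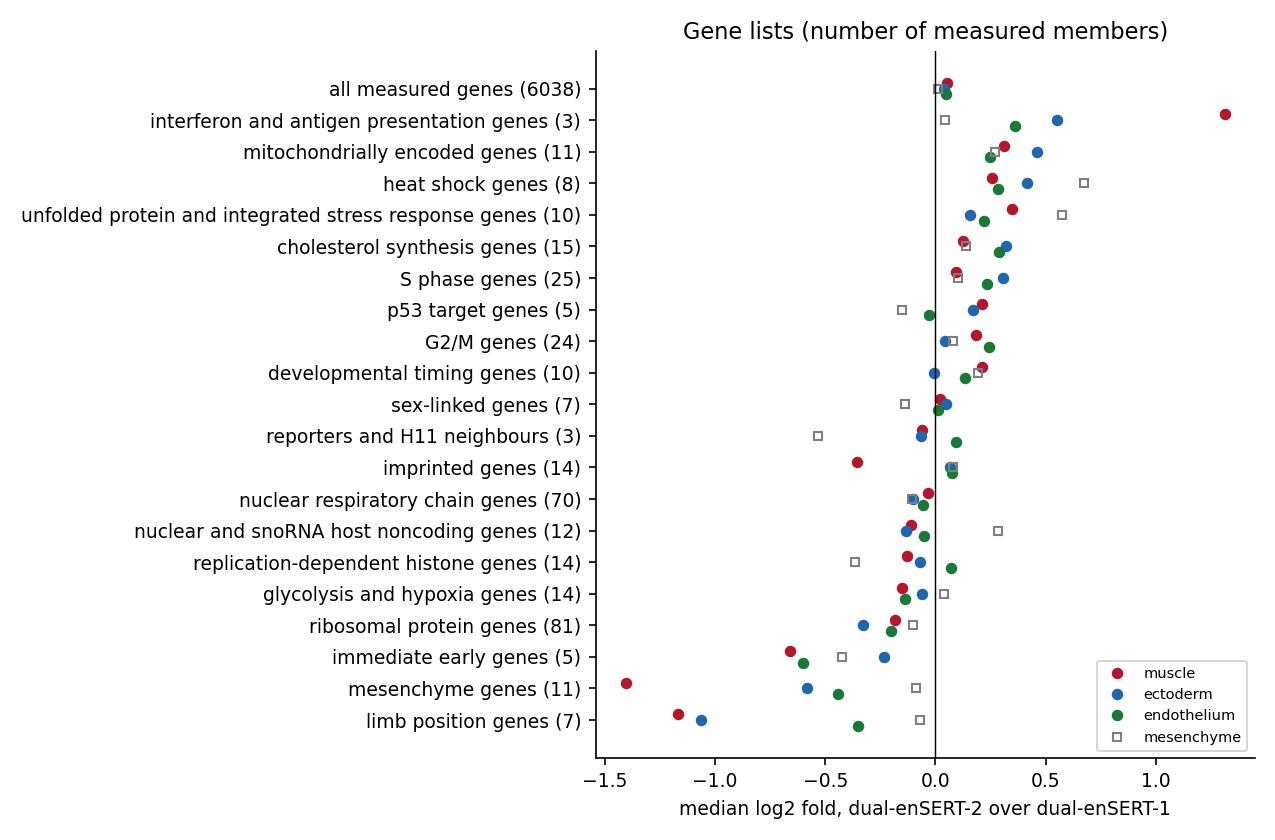
Median log2 fold of the measured members of each gene list in muscle, ectoderm and endothelium (filled circles) and in mesenchyme (open squares), with the number of measured members in brackets. Mesenchyme genes stand at -1.41, -0.58 and -0.44 and limb position genes at -1.17, -1.06 and -0.35 in muscle, ectoderm and endothelium, but near 0 in mesenchyme, and heat shock and mitochondrially encoded genes are higher in all 4 groups. Some of the mesenchyme genes also chose the mesenchyme cells, which partly sets their value there.

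Of the sex-linked genes, the Y-linked helicase Ddx3y had log2 folds of -0.10, 0.06 and 0.03, and Xist, the RNA that silences an X chromosome, was at 0 to 2.12 CPM in every class of both libraries. Ddx3x, the X-linked partner of Ddx3y, was higher at 168 against 310.2 CPM in muscle, 141 against 236 CPM in ectoderm and 142 against 211 CPM in endothelium. UMIs of the reporters were found in these classes, with eGFP at 60.03 against 12.5 CPM, 45.5 against 2.35 CPM and 29.4 against 16.6 CPM. mCherry stood at 17.7 against 11.3 CPM, 11.7 against 3.77 CPM and 8.52 against 17.0 CPM, so it was lower in muscle and ectoderm and higher in endothelium. In endothelium of dual-enSERT-2, 1 cell held 36.8% of the eGFP UMIs and 1 cell 33.3% of the mCherry UMIs. The part of free RNA in these levels was not tested, so they are not read as expression by the classes.

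The 2-fold limit divides a continuum. Just inside it on the higher side were Gphn and Cmss1, whose smallest log2 folds were 1.05 and 1.07, and just outside were Prtg with 0.94, Fasn with 0.82 and Fignl2 with 0.78. Just inside on the lower side were Mab21l2, Mfap4 and Shox2, with -1.10, -1.12 and -1.14, and just outside were Cdc42ep3 with -0.99, Col3a1 with -0.98 and Cpq with -0.91.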

How the data were processed

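Gene expression was measured by droplet single-cell RNA sequencing in 2 mouse hindlimb libraries, 1 per group. The authors deposited raw UMI counts, as integer matrices of features by barcodes whose headers name Cell Ranger 7.0.1. Cell Ranger 3.1.0, Seurat 4 and the build mm39 are listed in the submitters' processing notes. Not given in the sources used here were the version that made the counts, the annotation release, and whether counting took intronic reads or heeded strand. A minimum of 1000 genes and a maximum of 10% mitochondrial UMIs left 17790 of 20508 barcodes of dual-enSERT-1, which held 298653282 UMIs before filtering, and 6683 of 8885 of dual-enSERT-2, which held 184301053. Samples were grouped by their labelled constructs. Nothing in the labels gives replicates, so no test was run and no p-value is given.

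The classes were assigned from raw counts, and UMIs were pooled per class and scaled to CPM. Erythroid cells (globins at least 50% of UMIs) were scaled to UMIs that are not globin. A gene was measured at 20 CPM or more in either library in every class. The 12 genes of the class rule and 12 globin features were left out of the counts. Mesenchyme was read from a sum of at least 4 for Prrx1, Prrx2, Twist1 and Pdgfra with Prrx1 present, and macrophages from at least 5 for Csf1r, C1qa, C1qb, C1qc, Tyrobp and Fcer1g with Csf1r present, both fitting no other class. Named were the called genes, up to 2 further members of each of 22 lists with the largest folds, the reporters, sex-linked genes, Lin28b, Hmga2 and the genes nearest the limit. Lin28a, AY036118 and Cdk8 were added after their values were seen. So were Prtg and Fignl2, which are also among the genes nearest the limit. The values of 1 called gene and of some list members are not reported here. The genes, classes and lists were chosen with earlier results of these data known.

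For shares of cells with a UMI, each cell was thinned to 5000 UMIs. Coordinates came from GENCODE M39 (GRCm39), which held 56236 of the 56982 feature IDs. Stretches were searched with BLAST 2.17.0. Software was Scanpy 1.11.5, pandas 2.3.3, NumPy 2.4.6, matplotlib 3.10.9 and SciPy 1.17.1 under Python 3.11.15. The call was tested on simulated data. Alternatives changed the pseudocount, the minimum level, the fold, the barcode filters, the denominator, the pooling, the thinning and the treatment of doublets.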

Additional observations from a re-analysis of the deposited data

Results flagged for a closer look

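Among erythroid cells of dual-enSERT-2, which no class uses, 450 of 1397 (32.2%, exact 95% interval 29.8% to 34.7%) held at least 3 Xist UMIs, whereas in dual-enSERT-1 0 of 241 did, which allows a share of up to 1.24% by the limit of 3 counts and 1.52% by the exact interval. Of the macrophages of dual-enSERT-2, 5 of 27 (18.5%, 6.30% to 38.1%) held as many, with 0.20 Y-linked UMIs per cell, against 0 of 40 in dual-enSERT-1. The dual-enSERT-2 erythroid cells with that many Xist UMIs held 0.167 UMIs of Y-linked genes per cell and those without Xist 1.69. In the 3 classes of dual-enSERT-2 only 1 ectoderm cell reached 3 Xist UMIs. These values stand beside the single embryo named above for each library, and the source of the cells with Xist was not tested. Hmga2, the let-7 target named above, was on opposite sides of 0 in the classes, with log2 folds of 0.47 in muscle, 0.15 in endothelium and -0.49 in ectoderm. Meg3, an imprinted noncoding RNA, had 0.54 in endothelium, -0.44 in muscle and -1.58 in ectoderm. Pdgfra, a growth factor receptor of mesenchyme, had 0.33 in ectoderm, -1.73 in muscle and -1.52 in endothelium. With 1 library per group these differences between classes were not tested.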

How the results depend on the processing

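No paired analysis was possible because the labels carry no replicate numbers and each group holds 1 library. Over 21 alternatives, of which the denominator without Rn18s-rs5 and the joint removal of doublets and mesenchyme-rule barcodes were chosen after seeing the data, 231 of 339 recomputed counts and medians kept within 1.5 times, or within the counting spread, of the value in the report and 108 did not. Those 108 follow, and the cause was not tested unless the alternative itself sets it. Of single gene and class folds, 4647 kept, 580 moved by more than their interval and 2 reversed. Both reversals were for Sox9 in ectoderm, with 0.38 without barcodes fitting the mesenchyme rule and 0.51 without these and Scrublet doublets. Reversals were looked for among the called genes only, so a change of sign in another gene was filed as kept or moved. Counts and medians were not labelled by direction. The ectoderm median, given below, changed sign with the denominator without globin, mitochondrial and ribosomal protein genes.

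Genes called higher in all 3 classes were 10, against 5 measured at 50 CPM, 19 at a fold of 1.5, 5 at a fold of 3 and 6 with the mean of single-cell CPM. Genes called lower in all 3 classes were 6, against 20 measured at 10 CPM, 2 at 50 CPM, 34 at a fold of 1.5, 1 at a fold of 3, 10 with a denominator without globin, mitochondrial and ribosomal protein genes, 16 with the mean of single-cell CPM, 12 without the cell with most UMIs, 10 with class cells thinned to 5000 UMIs, 1 without mesenchyme-rule barcodes, 2 without Scrublet doublets and 1 without either. With cells thinned to 5000 UMIs before classes were assigned the counts were 10 and 8, but only 5 of the 10 and 2 of the 6 were the same genes.

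In muscle the 34 higher and 102 lower calls became 64 and 189 at 10 CPM, 12 and 28 at 50 CPM, 149 and 228 at a fold of 1.5, 12 and 37 at a fold of 3, 74 and 187 with thinned cells and 179 and 285 when cells were thinned before classes were assigned. In ectoderm the 18 higher calls became 29, 9, 139, 6, 73 and 162 in the same order, 40 with the mean of single-cell CPM, 29 without mesenchyme-rule barcodes and 30 without these and doublets. The 61 lower calls of ectoderm became 118, 22, 167, 15, 101 and 145 in the same order, 32 with marker sums 2 higher, 22 without mesenchyme-rule barcodes, 33 without doublets and 21 without either. In endothelium the 16 higher calls became 27, 9, 93, 6, 128 and 218 in the same order and 10 without the cell with most UMIs. The 28 lower calls of endothelium became 68, 7, 117, 6, 221 and 242 in the same order, 63 with the mean of single-cell CPM, 13 without mesenchyme-rule barcodes, 10 without doublets and 11 without either.

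The median log2 fold of muscle was 0.052, against 0.018 with the denominator without globin, mitochondrial and ribosomal protein genes, 0 by construction when folds were centred, 0.020 without the cell with most UMIs, 0.084 without mesenchyme-rule barcodes, 0.084 without doublets, 0.083 without either and 0.073 without Rn18s-rs5 in the denominator. That of ectoderm was 0.040, against -0.024, 0, 0.026, 0.094, 0.063, 0.095 and 0.070 in the same order, 0.030 at 10 CPM, 0.054 with marker sums 2 higher, 0.083 with the mean of single-cell CPM, 0.060 with thinned cells and 0.065 with cells thinned before classes were assigned. That of endothelium was 0.047, against 0.015 with that denominator, 0 when centred, 0.032 with the mean of single-cell CPM, 0.0070 without the cell with most UMIs, 0.027 with thinned cells, 0.060 without doublets, 0.034 with cells thinned first and 0.068 without Rn18s-rs5.

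Members of the gene lists called higher were 0, against 3 at a fold of 1.5 and 1 with thinned cells. Members called lower were 1, against 2 at a pseudocount of 0.1 CPM, 0 at 50 CPM, 6 at a fold of 1.5, 0 at a fold of 3, 0 with marker sums 2 higher, 2 with the denominator without globin, mitochondrial and ribosomal protein genes, 2 when centred, 6 with the mean of single-cell CPM, 5 without the cell with most UMIs, 0 without mesenchyme-rule barcodes, 0 without doublets, 0 without either and 4 with cells thinned first. In mesenchyme the 6 higher and 3 lower genes past the fold became 10 and 5 at a fold of 1.5, and 0 lower genes at a fold of 3. Depth limits the dual-enSERT-2 classes most, where 20 CPM is 45.8 to 85.0 UMIs.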

Other observations

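The 12 muscle markers outside the class rule differed in both directions. Mymk, the membrane protein of myoblast fusion, had 142 UMIs in 50 of 638 muscle cells of dual-enSERT-1 (8.14 CPM) and 0 UMIs in 77 cells of dual-enSERT-2, where 3 counts would be 1.21 CPM. Chrna1, a subunit of the muscle acetylcholine receptor, had 86 UMIs in 39 cells against 0. Actc1, cardiac actin, which is also made by embryonic muscle, had 1628 UMIs in 87 cells (93.3 CPM) against 1 UMI. Msc, a transcriptional repressor of myoblasts, stood at 49.99 against 5.63 CPM and the cadherin Cdh15 at 42.5 against 2.82 CPM. Des, the muscle intermediate filament protein, stood at 13.5 against 11.7 CPM, and Myf6 had 9 against 4 UMIs. Higher in dual-enSERT-2 were Eya1, at 205 against 323 CPM, and the migration receptor Met, at 223 against 248 CPM. The summed level of the 12 was 843 against 774 CPM.

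Platelet and megakaryocyte genes stood higher in dual-enSERT-1 in ectoderm and endothelium but lower in mesenchyme. Over 5 such genes the sum was 62.6 against 2.83 CPM in ectoderm and 153 against 13.1 CPM in endothelium, but 4.64 against 13.7 CPM in mesenchyme, and in muscle it was 1.83 against 0.402 CPM. Pf4, a platelet chemokine, made up most of it, with 449 UMIs in 2 ectoderm cells and 836 UMIs in 22 endothelial cells of dual-enSERT-1. The sum over 14 macrophage genes was 6.99 against 56.3 CPM in muscle and 25.8 against 5.89 CPM in ectoderm, and 16.05 against 14.8 CPM in endothelium. Few cells carry these sums: in muscle of dual-enSERT-2, Tyrobp had 33 UMIs in 3 cells and Lyz2 30 in 2, and in ectoderm of dual-enSERT-1, C1qb had 24 UMIs in 2 cells and Tyrobp 17 in 1.

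The globin ratio between the libraries was 10.1 in muscle, 10.3 in ectoderm, 8.68 in endothelium and 8.28 in mesenchyme. The adult beta globin Hbb-bs differed more in muscle and ectoderm, at 13.3 against 412 CPM and 14.3 against 389 CPM, than in endothelium, at 10.9 against 67.7 CPM, or mesenchyme, at 13.8 against 105 CPM. Hbb-bt, the other adult beta globin, also differed less in endothelium than in muscle and ectoderm, at 3.55 against 39.8 CPM in muscle, 2.18 against 48.3 CPM in ectoderm and 3.55 against 15.3 CPM in endothelium. AY036118 and Cdk8, named after their values were seen, had log2 folds of 0.67, 0.98 and 0.91 and of 0.72, 0.84 and 0.95 in muscle, ectoderm and endothelium.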
